A study of Arabidopsis thaliana with 12 samples.

Results

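BZIP60, BZIP17, ATERDJ3B and CRT1b belong to the machinery with which plant cells meet protein folding stress in the endoplasmic reticulum (ER). They were taken by name, with earlier results of these data known, as 4 of the 13356 genes measured here. Each has 1 probe set (a probe set is the group of short oligonucleotides that reads a transcript on the array). RNA from whole Arabidopsis thaliana Col-0 seedlings had been hybridised to 12 Affymetrix arrays, 3 in each of 4 groups. The groups were amiR-SNF4 seedlings grown in light, wild type seedlings grown in light, amiR-SNF4 seedlings grown in darkness and wild type seedlings grown in darkness. In amiR-SNF4 seedlings an artificial microRNA silences SNF4, a subunit of the SnRK1 kinase, which signals low energy. All groups, wild type included, were grown with 5 µM β-estradiol and 0.5% sucrose at 22 °C. The labels give a cycle of 8 h light and 16 h darkness. By them, whole seedlings 5 days old were collected 4 h into the light period. The labels give this also for the groups titled dark-grown, so what light those groups received is not clear. The sources used here describe neither an amiR-SNF4 group without β-estradiol nor the number of transgenic lines. They give the light groups also an age of 7 days after sowing and state the light intensity in differing ways. No probe set was named SNF4 here, so its silencing was not checked. The titles call the arrays of a group biological replicates, but the labels name no separate cultures, and the p-values reflect only how far these samples spread, which may be technical.

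Proteins that enter the secretory pathway fold in the ER with the help of chaperones, and a surplus of unfolded proteins sets off the unfolded protein response. In one branch the membrane protein IRE1 splices the BZIP60 messenger, which then encodes a transcription factor free to enter the nucleus. In another, the membrane-held factors BZIP17 and BZIP28 move to the Golgi, where site proteases such as S1P cut them loose. Their targets include chaperones of the ER lumen such as the BiP partner ATERDJ3B and the calreticulin CRT1b, and components that return misfolded proteins to the cytosol for degradation. The arrays measured the amount of transcript signal per probe set. The splicing of BZIP60 and the cutting of BZIP17 were not tested. In whole seedlings, fewer cells of a type and less RNA per cell cannot be told apart.

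Array medians of the deposited intensities ran from 39.4 to 99.49, with the lowest in dark-grown wild type replicate 3, so arrays were quantile-normalized before the fit. Of the green tissue markers, 3 of 8 were measured (LHCB4.1, LHCB4.2 and PRK). Their summed normalized intensity was 5401 to 6202 in light-grown amiR-SNF4 and 6727 to 9435 in light-grown wild type seedlings. It was 2580 to 4465 in dark-grown amiR-SNF4 and 6706 to 10320 in dark-grown wild type seedlings. The summed level overlapped between light-grown and dark-grown wild type. Of the 3 genes, LHCB4.2 alone was called (adjusted p under 0.05) between these groups, and was lower in light by -2.06 ± 0.23 on the log2 scale (SE; limma adjusted p = 1.81e-05). Against wild type, 3 of 3 were called lower in dark-grown amiR-SNF4 seedlings, beside 16.5% of all genes, and 1 of 3 in light-grown ones, beside 9.95%. The seed reserve markers M17 and PAP85, 2 of 6 listed, summed to 588.1 to 2403 in dark-grown amiR-SNF4 and 983.3 to 2317 in dark-grown wild type seedlings, and to at most 44.61 in both light-grown groups. The root hair genes EXPA7 and EXPA18, 2 of the 6 root markers, were dim: 64.74 to 82.98 in light-grown amiR-SNF4 against 90.95 to 142.1 in light-grown wild type, and 21.72 to 25.5 in dark-grown amiR-SNF4 against 52.91 to 78.68 in dark-grown wild type seedlings. The part of these tissue markers in the results that follow was not tested.

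In amiR-SNF4 seedlings the transcript signal of BZIP60, ATERDJ3B and CRT1b was higher than in wild type in both growth conditions, while BZIP17 passed the test in neither. In light, BZIP60 rose most of the 4 (4.60-fold), followed by ATERDJ3B (3.67-fold) and CRT1b (2.46-fold). The 95% intervals of BZIP60 (1.86 to 2.54 on the log2 scale) and ATERDJ3B (1.57 to 2.19) overlapped, and the fit did not test their order. In darkness, ATERDJ3B rose most of the 4 (6.77-fold), above CRT1b (3.88-fold) and BZIP60 (3.51-fold), whose order lay within their errors and turned round without amiR-SNF4 replicate 1. A gene was called where its Benjamini-Hochberg adjusted p in limma was under 0.05 over all 13356 genes. In light 3 of the 4 genes were called higher, beside 9.14% of all genes, and in darkness 3 of 4, beside 14.3%. Arrays of the groups compared did not overlap for 3 of the 4 genes in light and for 4 of 4 in darkness, beside 40.4% and 37.0% of all genes in those comparisons. Because the 4 genes were chosen with earlier results of these data known, these shares are no test of the 4 as a set.

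BZIP60 (AT1G42990), the factor whose messenger IRE1 splices, had normalized intensities of 952, 1108 and 1201 in light-grown amiR-SNF4 seedlings, against 264.3, 190.8 and 219.1 in light-grown wild type (replicates 1 to 3, as in all such lists here). Every amiR-SNF4 array lay above every wild type array. On the scale of log2(intensity + 16), the group means were 10.10 ± 0.17 in amiR-SNF4 and 7.90 ± 0.22 in wild type (SD, n = 3 each), a log2 fold change of 2.201 ± 0.16 (SE; adjusted p = 5.51e-07). In darkness the normalized intensities of BZIP60 were 1327, 1421 and 1453 in amiR-SNF4 seedlings, against 396.1, 446.4 and 326.9 in wild type. The groups were again apart, with log2 means of 10.47 ± 0.07 in amiR-SNF4 and 8.65 ± 0.22 in wild type (SD, n = 3 each) and a log2 fold change of 1.81 ± 0.16 (SE; adjusted p = 1.52e-06). In light 149 genes had a larger log2 fold change than BZIP60, and in darkness 371 did.

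BZIP17 (AT2G40950), a membrane-held factor also known from salt stress, was much dimmer. Its normalized intensities were 90.67, 131.5 and 201.1 in light-grown amiR-SNF4 seedlings, against 147, 114.2 and 95.16 in light-grown wild type. These groups overlapped, and the amiR-SNF4 arrays spread widely, with an SD of 0.51 on the log2 scale against 0.28 in wild type. The log2 difference was 0.18 ± 0.22 (SE), with a 95% interval of -0.29 to 0.65 (adjusted p = 0.678), and without light-grown amiR-SNF4 replicate 3 it was -0.09. In darkness BZIP17 measured 168.8, 184.6 and 175 in amiR-SNF4 seedlings, against 143.1, 140.9 and 142.9 in wild type. All 3 amiR-SNF4 arrays were above the wild type arrays, by little. The log2 difference of 0.28 ± 0.22 (SE; 95% interval -0.19 to 0.75) did not pass the test (adjusted p = 0.389), in a fit where the spread of a gene is shared by all 4 groups. These intervals leave room for a change in either direction.

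ATERDJ3B (AT3G62600), a J-domain co-chaperone that works with BiP in the ER lumen, had normalized intensities of 1181, 1234 and 1221 in light-grown amiR-SNF4 seedlings, against 338, 317.9 and 299.5 in light-grown wild type. Both groups were tight and lay far apart. The log2 means were 10.26 ± 0.03 in amiR-SNF4 and 8.38 ± 0.08 in wild type (SD, n = 3 each), a log2 fold change of 1.88 ± 0.14 (SE; adjusted p = 1.01e-06). In darkness ATERDJ3B measured 1942, 1544 and 1463 in amiR-SNF4 seedlings, against 207.5, 215.1 and 266.2 in wild type. The dark-grown groups held both the highest and the lowest values of the gene. The log2 fold change was 2.76 ± 0.14 (SE; adjusted p = 1.76e-08), with log2 means of 10.69 ± 0.22 in amiR-SNF4 and 7.93 ± 0.18 in wild type (SD, n = 3 each). A larger log2 fold change was found for 210 genes in light and 156 in darkness.

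CRT1b (AT1G09210), a calreticulin that binds newly made glycoproteins and calcium, had normalized intensities of 1460, 1475 and 1444 in light-grown amiR-SNF4 seedlings, against 598.4, 536.1 and 618.2 in light-grown wild type. The groups were apart, and the amiR-SNF4 arrays differed little from each other. The log2 fold change was 1.3 ± 0.19 (SE; adjusted p = 0.000261), with log2 means of 10.53 ± 0.02 in amiR-SNF4 and 9.23 ± 0.11 in wild type (SD, n = 3 each). In darkness CRT1b measured 1810, 1247 and 1157 in amiR-SNF4 seedlings, against 289.1, 314.5 and 441.6 in wild type. Here the spread was wider, with an SD of 0.34 in amiR-SNF4 and 0.31 in wild type on the log2 scale, but the groups did not overlap. The log2 fold change was 1.96 ± 0.19 (SE; adjusted p = 3.62e-06). A larger log2 fold change was found for 407 genes in light and 339 in darkness.

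**Figure D1:**
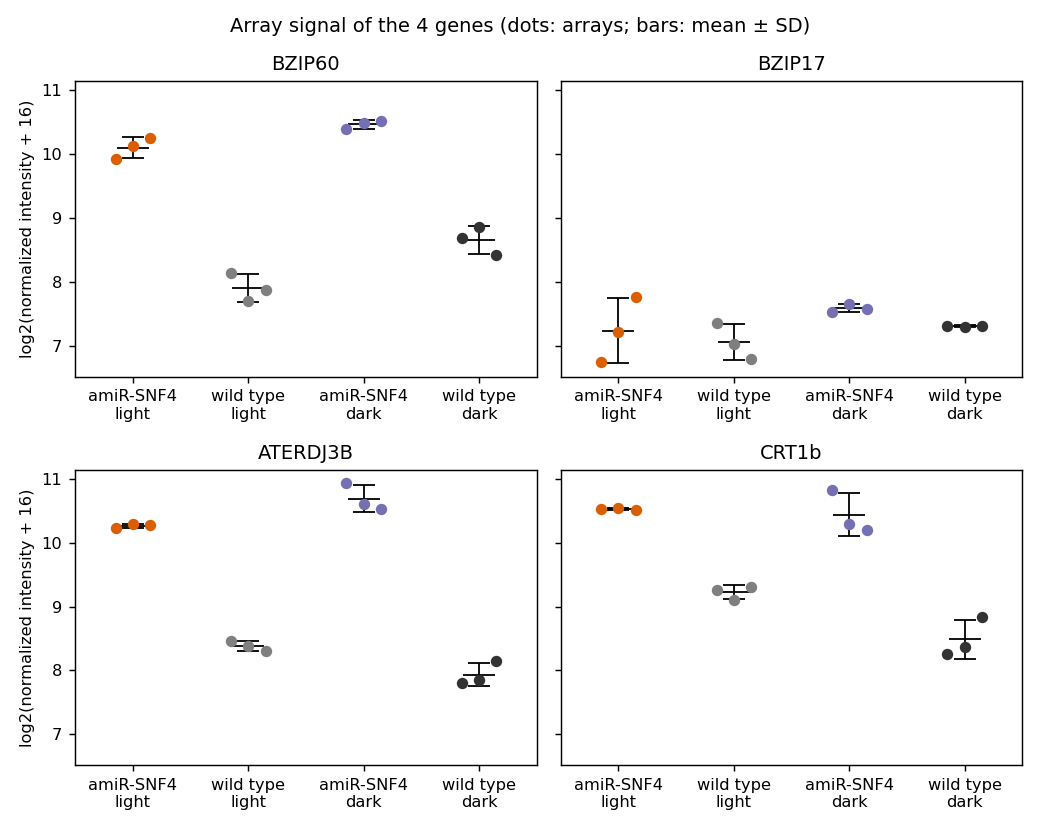
Normalized array signal of the 4 genes on the log2(intensity + 16) scale (vertical axis), by group (horizontal axis); dots are arrays, bars the mean ± SD of 3 arrays. BZIP60, ATERDJ3B and CRT1b lie higher in amiR-SNF4 than in wild type seedlings with no overlap in light or darkness, whereas the light-grown groups of BZIP17 overlap.

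**Figure D2:**
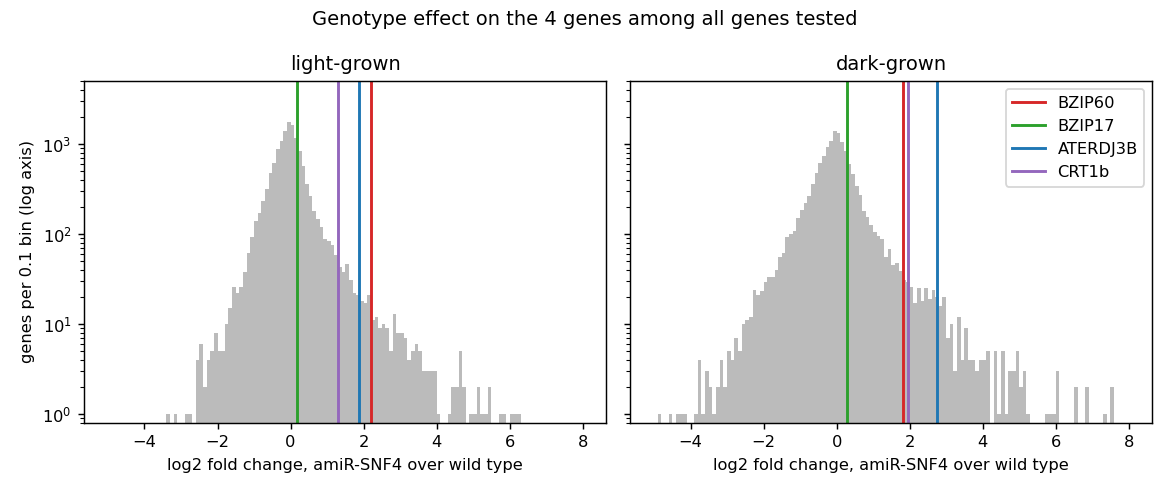
Distribution of the log2 fold change of amiR-SNF4 over wild type for all 13356 genes (horizontal axis; genes per bin on a log axis), with a line for each of the 4 genes, in light-grown (left) and dark-grown seedlings (right). BZIP60, ATERDJ3B and CRT1b fall in the upper tail in both panels, and BZIP17 in the body of the distribution, with 3393 genes above it in light and 3217 in darkness.

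In darkness, after quantile normalization, 1 array of each genotype lay above the other 2 for both chaperones. Replicate 1 of amiR-SNF4 and replicate 3 of wild type had the highest normalized ATERDJ3B and CRT1b of their groups and the lowest BZIP60. These arrays also had the lowest median deposited intensity of their groups (50.02 and 39.4). On the deposited intensities, wild type replicate 3 had the lowest ATERDJ3B (154.6) and CRT1b (248.7) of its group. There, amiR-SNF4 replicate 1 had the lowest ATERDJ3B (1303) and the highest CRT1b (1222) of its group. Without wild type replicate 3 the log2 fold changes in darkness were 1.70 for BZIP60, 2.86 for ATERDJ3B and 2.13 for CRT1b. Without amiR-SNF4 replicate 1 they were 1.85, 2.64 and 1.76. All 6 of these values passed the test.

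Whether the growth condition altered the response was tested as the difference between the genotype effect in light and that in darkness. ATERDJ3B alone of the 4 genes was called, beside 7.98% of all genes called in either direction. Its effect in light minus that in darkness was -0.88 ± 0.20 on the log2 scale (SE; 95% interval -1.32 to -0.44; adjusted p = 0.017). That call was lost without normalization between arrays (adjusted p = 0.126), with scaling to the hybridization controls (0.228) and with a constant of 1 in place of 16 (0.0535), with the direction kept in all 3. CRT1b had a difference of -0.66 ± 0.26 (SE; adjusted p = 0.168), in the same direction as ATERDJ3B. BZIP60 had 0.39 ± 0.22 (SE; 95% interval -0.09 to 0.87; adjusted p = 0.362), and BZIP17 -0.10 ± 0.31 (SE; adjusted p = 0.915).

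The ratio of 2 of these genes on the same array does not change when all values of an array are multiplied by a common factor. Quantile normalization is no such scaling and can alter the ratio. The 3 pairs of BZIP60, ATERDJ3B and CRT1b were therefore compared on the deposited intensities, a comparison chosen after the data were seen. A log2 ratio between probe sets is no ratio of transcript numbers. Only its shift between groups is read here, as unequal change of the 2 genes. Over BZIP60, the log2 ratio of ATERDJ3B was 0.30, 0.17 and 0.02 in light-grown amiR-SNF4 seedlings, against 0.35, 0.74 and 0.44 in light-grown wild type. Each amiR-SNF4 array lay below each wild type array. In darkness it was 0.47, 0.12 and 0.01 in amiR-SNF4 seedlings, against -0.97, -1.07 and -0.26 in wild type, with each amiR-SNF4 array above each wild type array. The difference of the mean log2 ratios, amiR-SNF4 minus wild type, was -0.34 in light and 0.96 in darkness.

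The log2 ratio of CRT1b over BZIP60 averaged 0.44 ± 0.18 in light-grown amiR-SNF4 and 1.36 ± 0.16 in light-grown wild type seedlings (SD, n = 3 each). In darkness the groups overlapped, at -0.04 ± 0.37 in amiR-SNF4 and -0.19 ± 0.53 in wild type (SD, n = 3 each). CRT1b over ATERDJ3B was lower in amiR-SNF4 than in wild type seedlings both in light, at 0.27 ± 0.04 against 0.86 ± 0.12, and in darkness, at -0.24 ± 0.13 against 0.58 ± 0.10 (SD, n = 3 each). In 5 of the 6 comparisons the arrays of the groups did not overlap, which gives a two-sided exact permutation p of 0.1, the smallest that 3 arrays against 3 allow, and 0.12 after adjustment over the 6. For CRT1b over BZIP60 in darkness the exact permutation p was 0.6, and this design cannot reach 0.05. The 6 comparisons are not independent, because the log2 ratio of CRT1b over ATERDJ3B is the difference between those of each over BZIP60. Of all single genes, 40.4% did not overlap between the genotypes in light and 37.0% in darkness. The share among other pairs of genes was not tested.

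**Figure D3:**
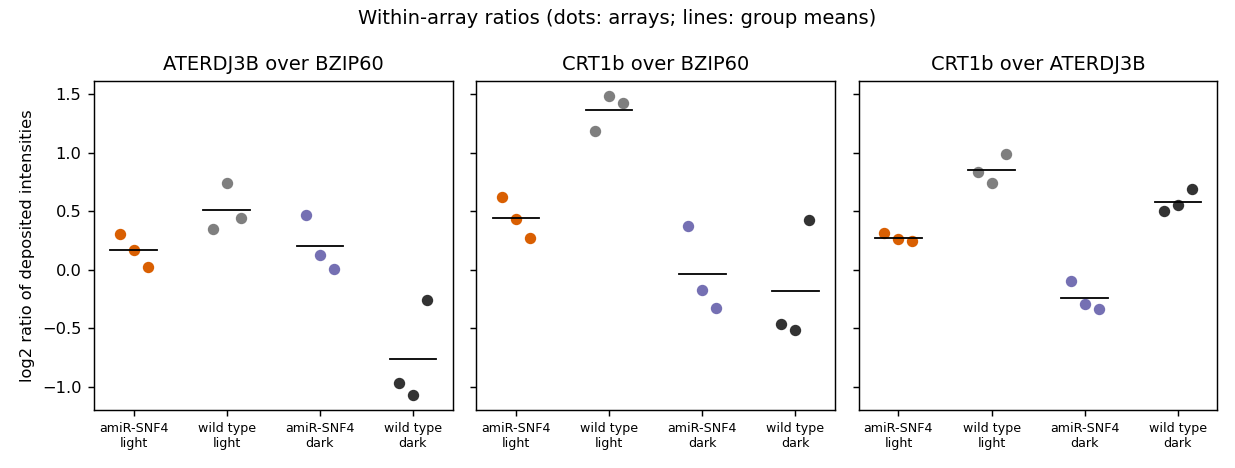
Log2 ratio of deposited intensities for 3 pairs of genes within each array (vertical axis), by group (horizontal axis); dots are arrays and lines group means of 3 arrays. The amiR-SNF4 and wild type arrays do not overlap in 5 of the 6 comparisons, which are not independent. ATERDJ3B over BZIP60 is lower in amiR-SNF4 than in wild type in light and higher in darkness.

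The level of each gene by growth condition within a genotype depended on how arrays were scaled. With quantile normalization the median gene differed between light and darkness by -0.01 on the log2 scale in both genotypes. Without normalization it was higher in light by 0.16 in amiR-SNF4 and 0.28 in wild type, and with scaling to the hybridization controls by 0.62 in amiR-SNF4 and 0.54 in wild type. The log2 values that follow are light over darkness. The share of called genes that were higher in light was 52.7% in amiR-SNF4 and 52.9% in wild type with quantile normalization, 77.1% and 85.5% without normalization, and 94.8% and 93.8% with the hybridization controls. In amiR-SNF4 seedlings 1 of the 4 genes was called, beside 33.6% of all genes, and in wild type 3 of the 4, beside 34.9%.

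CRT1b was higher in light-grown than in dark-grown wild type seedlings by 0.74 ± 0.19 (SE; adjusted p = 0.0075), and was called higher in all 22 alternative settings tried. ATERDJ3B was also higher in light in wild type, by 0.45 ± 0.14 (SE; adjusted p = 0.0255), but the call was lost when 1 of 4 wild type arrays was left out (replicates 1 and 2 of either condition). In amiR-SNF4 seedlings CRT1b measured 0.08 ± 0.19 (SE; adjusted p = 0.793) with overlapping arrays, which became 0.55 without normalization and 1.24 with the hybridization controls, both past the test. ATERDJ3B was lower in light in amiR-SNF4 by -0.43 ± 0.14 (SE; adjusted p = 0.034), which turned to 0.05 without normalization and to 0.73, called higher, with the hybridization controls. It also lost its call without dark-grown replicate 1 (-0.31) and without any 1 of the light-grown replicates (-0.44 to -0.41).

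BZIP60 was lower in light-grown than in dark-grown wild type seedlings by -0.75 ± 0.16 (SE; adjusted p = 0.00222), but measured -0.19 (not called) without normalization and turned to 0.19 (not called) with the hybridization controls. Set against the shift of the median gene, BZIP60 in wild type stood at -0.47 without normalization and at -0.34 with the hybridization controls, and CRT1b at 1.02 and 1.16. In amiR-SNF4 seedlings BZIP60 measured -0.37 ± 0.16 (SE; adjusted p = 0.0936) and turned to 0.08 without normalization and 0.76, called higher, with the hybridization controls. BZIP17 was called in neither genotype with all arrays, at -0.35 ± 0.22 in amiR-SNF4 (adjusted p = 0.252) and -0.25 ± 0.22 in wild type (SE; adjusted p = 0.426), and with the hybridization controls turned to 0.61 in amiR-SNF4 and 0.63 in wild type, where it was also above 0 without normalization (0.27). Without light-grown amiR-SNF4 replicate 3, BZIP17 was called lower in light in amiR-SNF4, at -0.61 (adjusted p = 0.0295).

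With quantile normalization, BZIP60 ran in descending order through dark-grown amiR-SNF4, light-grown amiR-SNF4, dark-grown wild type and light-grown wild type seedlings, and its first 2 groups did not differ past the test. ATERDJ3B ran through dark-grown amiR-SNF4, light-grown amiR-SNF4, light-grown wild type and dark-grown wild type seedlings. CRT1b had its highest mean in light-grown amiR-SNF4, not past the test against dark-grown amiR-SNF4, then light-grown wild type and dark-grown wild type. For BZIP17, no pair of groups tested differed past the threshold. Neighbours that differ in both genotype and growth condition were not tested against each other. In ATERDJ3B, CRT1b and BZIP60 both amiR-SNF4 groups lay above both wild type groups on every array.

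**Figure D4:**
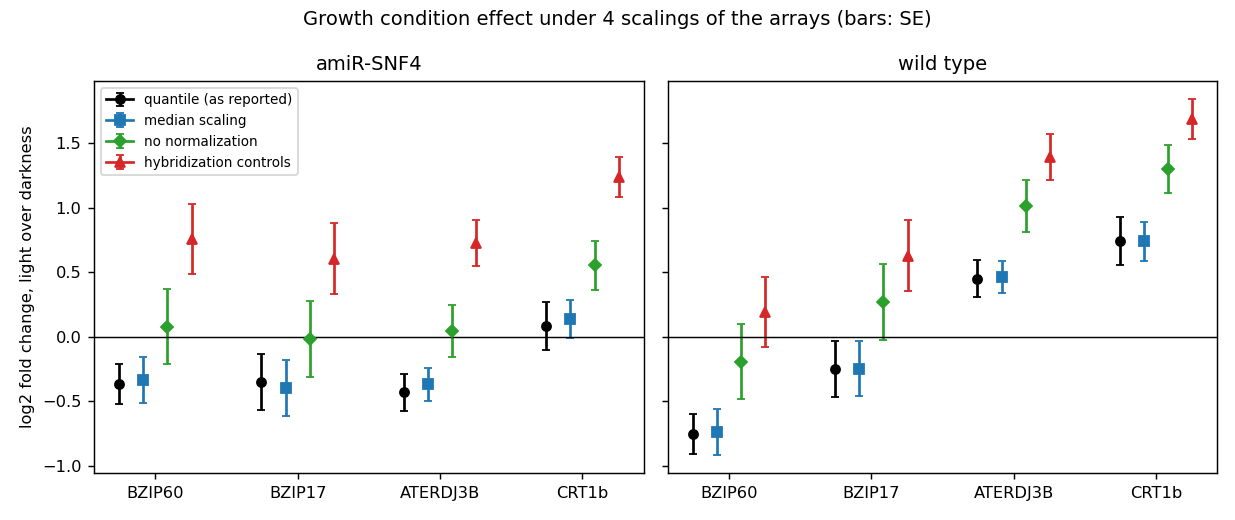
Log2 fold change of light over darkness (vertical axis) for the 4 genes (horizontal axis) under 4 scalings of the arrays, in amiR-SNF4 (left) and wild type seedlings (right); bars are SE from the fit. The hybridization controls and the absence of normalization move all 4 genes upwards against quantile normalization, and only CRT1b lies above 0 under all 4 scalings in both genotypes, ATERDJ3B doing so in wild type.

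Other genes of the pathway came from 3 lists of 50 loci, of which 16 were measured, the 4 genes included. These lists and the others used here were also chosen with earlier results of these data known. Measured here means that the platform annotation named the locus alone for a probe set. The other loci may be read by probe sets left without a name or naming several genes, and were not looked at. In light 8 of the 16 were called higher and 0 lower, beside 9.14% and 9.95% of all genes. In darkness 8 were called higher and 1 lower, beside 14.3% and 16.5% of all genes. The median log2 fold change of the 16 was 0.51 in light and 0.48 in darkness, against -0.03 for all genes in both. Without the 4 genes above, 5 of 12 were called higher and 0 lower in light, beside the same shares of all genes. In darkness 5 of the 12 were called higher and 1 lower. The medians of the 12 were 0.30 in light and 0.29 in darkness. Over the 22 alternative settings the count called higher among the 16 ran from 4 to 9 in light, where the 4 came without normalization, and from 7 to 9 in darkness.

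Among the regulators, 5 of 14 listed loci were measured. Beside BZIP60, BZIP28, a close relative of BZIP17 released by the same proteases, was called in darkness. Its normalized intensities were 637.4, 489.7 and 457.8 in dark-grown amiR-SNF4 seedlings, against 299.8, 292.1 and 403.1 in wild type. The groups were apart, with wild type replicate 3 close to the amiR-SNF4 arrays, and the log2 fold change was 0.65 ± 0.16 (SE; adjusted p = 0.0075; 0.0523 when the dark groups alone were fitted). In light BZIP28 measured 0.34 ± 0.16 (SE; adjusted p = 0.181), with called values in 2 of the alternative settings. The protease gene S1P measured 0.27 ± 0.23 in light (SE; adjusted p = 0.506) and -0.25 ± 0.23 in darkness (SE; adjusted p = 0.455). The locus AT4G20310, also on this list, measured -0.13 in light and -0.07 in darkness.

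Among ER chaperones and folding enzymes, 6 of 28 listed loci were measured and 4 were called higher in both conditions, beside 9.14% of all genes in light and 14.3% in darkness. ATERDJ2B, a J-domain protein of the translocon by which proteins enter the ER, measured 193.7, 175.9 and 211.2 in light-grown amiR-SNF4 seedlings, against 59.96, 70.78 and 100.3 in light-grown wild type. It rose by 1.19 ± 0.21 in light (SE; adjusted p = 0.00142) and by 1.15 ± 0.21 in darkness (SE; adjusted p = 0.000953) on the log2 scale. Its paralogue ATERDJ2A measured -0.12 in light (adjusted p = 0.772) and 0.09 in darkness (adjusted p = 0.803). The locus AT5G07340 measured 231.9, 193.5 and 169.8 in dark-grown amiR-SNF4 seedlings, against 91.42, 87.97 and 71.75 in dark-grown wild type. It rose by 0.75 ± 0.15 in light (SE; adjusted p = 0.00342; 0.199 without normalization) and by 1.10 ± 0.15 in darkness (SE; adjusted p = 0.000103). PDIL5-1, a protein disulfide isomerase, which forms and rearranges disulfide bonds, was called in neither condition, at 0.22 in light and 0.27 in darkness.

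Of the genes for ER-associated degradation, 5 of 8 listed loci were measured, and 3 were called higher in light, beside 9.14% of all genes, and 2 in darkness, beside 14.3%. OS9, a lectin that hands misfolded glycoproteins to the degradation complex, measured 317.9, 360.9 and 315.4 in light-grown amiR-SNF4 seedlings, against 125.8, 179 and 146.2 in light-grown wild type. All amiR-SNF4 arrays were higher, and the log2 fold change was 1.07 ± 0.16 in light (SE; adjusted p = 0.000353; 0.0624 without normalization) and 1.24 ± 0.16 in darkness (SE; adjusted p = 5.42e-05). DER1, a derlin of the ER membrane, rose by 1.04 ± 0.14 in light (SE; adjusted p = 0.00013; 0.0725 without normalization) and by 0.86 ± 0.14 in darkness (SE; adjusted p = 0.000312). A second, dim probe set of DER1 measured 0.12 in light and 0.36 in darkness and was not tested. UBC32, a ubiquitin-conjugating enzyme of the ER membrane, rose by 0.69 ± 0.13 in light (SE; adjusted p = 0.00204; 0.185 without normalization) and measured 0.32 ± 0.13 in darkness (SE; adjusted p = 0.0826), where it was called, at 0.42, without wild type replicate 3 (adjusted p = 0.0276).

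The derlins DER2.1 and DER2.2, relatives of DER1, were called higher in neither condition. DER2.2 measured 330.1, 329.6 and 356.5 in dark-grown amiR-SNF4 seedlings, against 474.9, 489.8 and 423.7 in dark-grown wild type. It was lower on all 3 amiR-SNF4 arrays, and fell by 0.43 on the log2 scale (SE 0.14; adjusted p = 0.0327), a call that was lost under each of the other 3 scalings of the arrays (adjusted p = 0.0653 to 0.511). The call was also lost without replicate 1 or 2 of either dark-grown genotype (adjusted p = 0.0683 to 0.0992). DER2.1 measured -0.45 ± 0.17 in darkness (SE; adjusted p = 0.0654), and -0.62 without amiR-SNF4 replicate 2 (adjusted p = 0.0141). In light DER2.1 stood at 0.00 and DER2.2 at -0.02, neither of them called.

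**Figure D5:**
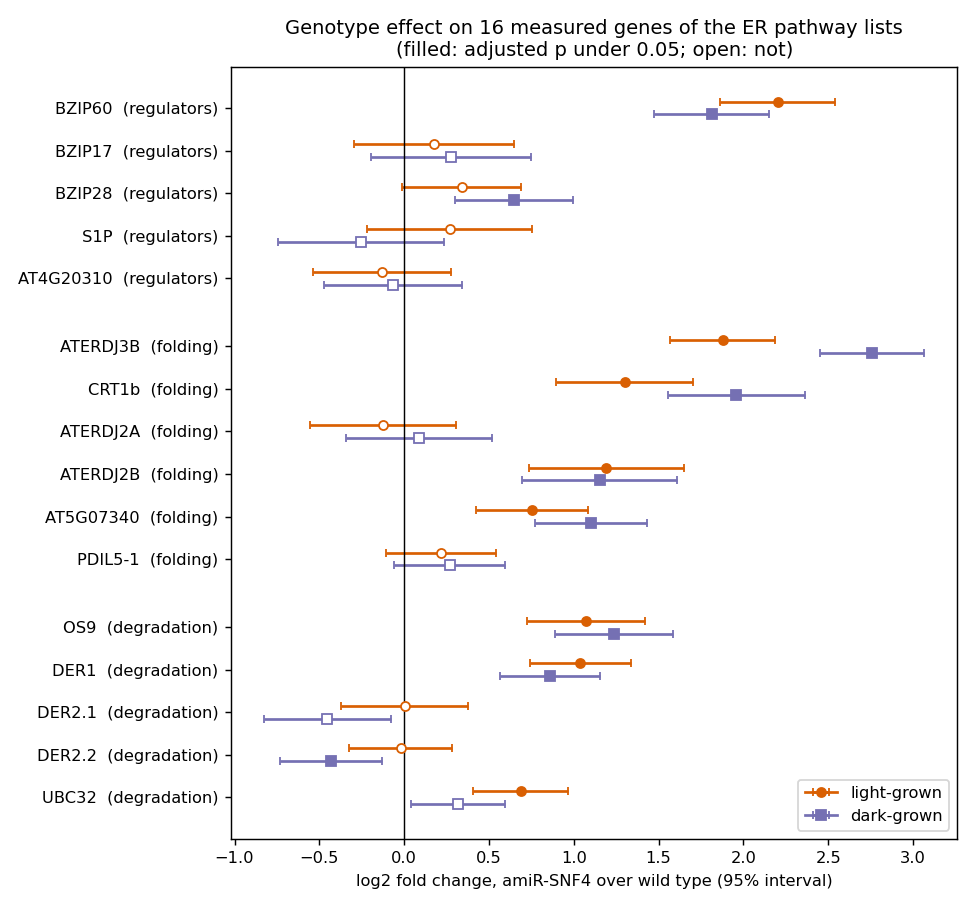
Log2 fold change of amiR-SNF4 over wild type with its 95% interval (horizontal axis) for the 16 measured genes of the ER lists, grouped by role (vertical axis), in light-grown (circles) and dark-grown seedlings (squares); filled symbols passed the test. BZIP60, ATERDJ3B and CRT1b have the largest values among the 16 in both conditions, and DER2.2 in darkness is the only filled symbol below 0.

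Chaperones outside the ER were looked at beside them. Of 14 listed cytosolic heat shock loci 3 were measured, and all 3 were called higher in both conditions and in all 22 alternative settings, beside 9.14% of all genes in light and 14.3% in darkness. Hsp70-2, an Hsp70 chaperone, rose by 1.34 ± 0.16 in light and by 2.02 ± 0.16 in darkness on the log2 scale (SE; adjusted p = 4.86e-05 and 6.03e-07). AT3G09440 had normalized intensities of 4218, 3568 and 3641 in dark-grown amiR-SNF4 seedlings, against 525.6, 435.3 and 529.8 in dark-grown wild type. Its log2 fold change was 1.06 ± 0.14 in light and 2.90 ± 0.14 in darkness (SE; adjusted p = 0.000139 and 1.04e-08). AT1G53540 rose by 1.21 ± 0.23 in light and by 2.75 ± 0.23 in darkness (SE; adjusted p = 0.00251 and 1.27e-06). The difference between the effects was called for AT3G09440, at -1.84 ± 0.20 (SE; adjusted p = 0.000113), and for AT1G53540, at -1.54 ± 0.33 (SE; adjusted p = 0.012). The effects of AT3G09440 and AT1G53540 were thus smaller in light. Hsp70-2 had -0.67 ± 0.22 (SE; adjusted p = 0.0914), in the same direction and not called. It was called with a constant of 64 (adjusted p = 0.0285) and without dark-grown amiR-SNF4 replicate 2 (adjusted p = 0.0417). AT1G53540 was dim in light-grown wild type (14.22, 10.7 and 1.542 normalized intensity, below the added constant of 16), and its effect in light ran from 0.52 with a constant of 64 to 2.42 with a constant of 1, which made the difference -0.68. The call of its difference was lost in the same 3 settings as that of ATERDJ3B (adjusted p = 0.13 to 0.729). Among 16 listed membrane-tethered transcription factors 4 were measured, namely the bZIP genes above and NAC014, which was called in neither condition. NAC014 measured -0.41 ± 0.14 in light (SE; adjusted p = 0.0682) and -0.22 ± 0.14 in darkness (SE; adjusted p = 0.288). In light it was called lower with the light groups fitted alone, with array weights and without dark-grown amiR-SNF4 replicate 2.

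For each of the 4 genes, the 3 genes with the most similar profile were found as those with the smallest root mean square difference of the 12 array values on the log2 scale, each gene centred on its own mean. This is a description over arrays that all the genes share. The nearest genes lie below the median difference by the way they were chosen, so that median is given only for scale. Nearest to ATERDJ3B lay AT4G16660 (0.16), AT5G58120 (0.18) and Prx37, annotated as peroxidase 37 (0.20), against a median of 1.25 over all genes. Nearest to CRT1b were AT1G22410 (0.15), FaTA, annotated as an acyl-ACP thioesterase of fatty acid synthesis (0.22), and AT3G46110 (0.27), against a median of 0.95. For BZIP60 they were AT5G09290 (0.19), AT4G39830 (0.22) and CML43, a calmodulin-like gene (0.24), against 1.12. BZIP17 varied little (SD over the arrays 0.32), and its nearest genes AT1G68630 (0.17), AT3G21310 (0.17) and AT1G77100 (0.18) stood against a median of 0.47. By the same choice, the genotype effects of AT4G16660 lie near those of ATERDJ3B. They were 1.75 in light and 2.46 in darkness for amiR-SNF4 over wild type on the log2 scale, beside 1.88 and 2.76 for ATERDJ3B.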

How the data were processed

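Transcripts were measured on 12 Affymetrix ATH1 arrays. Each array's deposited file column gives a linear-scale intensity for every probe set, and GCOS, Affymetrix's array software, is named per the submitters' processing notes. Whether and how the authors scaled them is not given in the sources used here, nor were detection calls used, so signal over background is not known for single values. The number of arrays limits the precision.

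Of 22810 probe sets, 64 controls were set aside and the other 22746 quantile-normalized on the log2 scale, followed by log2(intensity + 16), which understates changes of dim genes. The platform annotation named 1 gene for 13513 probe sets, several for 503 (left out) and none for 8730. Where a gene had several probe sets (146 genes), the brightest on average was used. This left 13356 genes, of which 13286 matched a gene table of TAIR10.1, used for names only. Each of the 4 genes has 1 probe set.

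All arrays entered 1 fit with 4 group means in limma 3.58.1 (lmFit and eBayes, R 4.3.3). A call needed an adjusted p under 0.05 (Benjamini-Hochberg, over all genes). The fit was run on simulated data with independent noise and known changes. Those data held no scaling differences between arrays, so that run does not bear on the normalization. Groups and replicate numbers came from the sample titles. No 2 arrays held identical values.

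The 4 genes, the lists (94 loci in 8 lists) and the settings were chosen with earlier results of these data known, and the within-array ratios after the data were seen. The text names the 4 genes, every measured gene of the 3 ER lists, up to 3 called genes of each other list by smallest adjusted p (tissue markers mainly as sums), and the 3 genes nearest in profile to each of the 4. Alternatives were no normalization, median scaling, scaling to hybridization controls, constants of 1 and 64, a filter on dim genes, the mean of probe sets, fits of the compared groups alone, a replicate block, array weights and leaving out each array.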

Additional observations from a re-analysis of the deposited data

Results flagged for a closer look

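For ATERDJ3B the genotype effect differed between growth conditions by a test of the difference itself: the effect in light minus that in darkness was -0.88 ± 0.20 on the log2 scale (SE; limma adjusted p = 0.017), with effects of 1.88 in light and 2.76 in darkness. The arrays of both genotypes were apart in each condition. The direction held in all 21 alternative settings, over which the value ran from -0.98 to -0.67, and the call held in 18 of them. The filter on dim genes, the mean of probe sets and the replicate block leave this value as it is.

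The same test called 2 cytosolic heat shock loci, and did not call Hsp70-2 (-0.67; limma adjusted p = 0.0914). AT3G09440 had a difference of -1.84 ± 0.20 (SE; limma adjusted p = 0.000113), with effects of 1.06 in light and 2.90 in darkness. AT1G53540 had a difference of -1.54 ± 0.33 (SE; limma adjusted p = 0.012), with effects of 1.21 in light and 2.75 in darkness. Its light-grown wild type intensities lay below the added constant of 16, and with a constant of 1 the effect in light was 2.42 and the difference -0.68. Its call was lost without normalization, with the hybridization controls and with a constant of 1 (adjusted p = 0.13 to 0.729), whereas that of AT3G09440 held in all the alternative settings run.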

How the results depend on the processing

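BZIP60, ATERDJ3B and CRT1b kept their direction and their call in both genotype comparisons under all 22 alternatives, with log2 fold changes of 2.00 to 2.34, 1.74 to 2.01 and 1.21 to 1.45 in light and 1.70 to 1.91, 2.54 to 2.86 and 1.76 to 2.13 in darkness. Over the 5 comparisons, 405 of 436 alternative values kept direction and call, and 31 did not. The cause was not tested. Some alternatives leave the log2 fold change of these genes as it is, so that only the call could be lost. They are the filter on dim genes, the mean of probe sets, fits of the compared groups alone and the replicate block. Leaving out an array of a group that is not compared does the same.

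Without normalization, the number of genes called was 2282 of 13356 in darkness (4113 with quantile normalization), 1486 in light (2550) and 278 for the difference (1066). ATERDJ3B had a difference of -0.97, and light over darkness was -0.19 for BZIP60 and 0.27 for BZIP17 in wild type, and 0.079 for BZIP60, 0.046 for ATERDJ3B and 0.55 for CRT1b in amiR-SNF4. With the hybridization controls, 2546 genes were called in darkness, 381 for the difference and 7523 for light against darkness in amiR-SNF4 (4493). ATERDJ3B had a difference of -0.67, light over darkness in wild type was 0.19 for BZIP60 and 0.63 for BZIP17, and in amiR-SNF4 it was 0.76 for BZIP60, 0.61 for BZIP17, 0.73 for ATERDJ3B and 1.24 for CRT1b.

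A constant of 1 left 637 genes called for the difference, a difference of -0.91 for ATERDJ3B and -0.43 for its light over darkness in amiR-SNF4 (adjusted p = 0.0722), while a constant of 64 gave -0.35, called, for BZIP60 there. Array weights called 4077 genes in light. The share called higher in amiR-SNF4 was 57.9% in darkness without normalization (46.5% with quantile normalization) and 65.3% in light with the hybridization controls (47.9%), and for the difference 31.7% without normalization (50.9%). ATERDJ3B, light over darkness in amiR-SNF4, was -0.43 and not called with the replicate block (adjusted p = 0.0558) or with those groups alone (0.0606); the block changed no other call of the 4 genes. Correlations between the deviations of same-numbered arrays of different groups ran from -0.326 to 0.2 over 18 pairs, 4 of them over 0.1. Between light and darkness within a genotype all were positive but small. They were 0.09, 0.049 and 0.2 in wild type and 0.129, 0.006 and 0.107 in amiR-SNF4 seedlings. Between genotypes both signs occurred. The numbers were not taken to pair samples.

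Leaving out 1 array at a time, light over darkness for ATERDJ3B ran from 0.39 to 0.56 in wild type and from -0.51 to -0.31 in amiR-SNF4, for CRT1b in amiR-SNF4 from -0.041 to 0.28 and for BZIP17 in amiR-SNF4 from -0.61 to -0.10. BZIP17 ran from -0.086 to 0.43 in the light comparison and from -0.36 to 0.15 for the difference. Among uncalled pathway genes, values near 0 changed sign. With 1 array left out, AT4G20310 ran from -0.186 to 0.015 in darkness and from -0.253 to 0.079 in light, ATERDJ2A from -0.081 to 0.321 in darkness, DER2.1 from -0.10 to 0.072 in light and DER2.2 from -0.151 to 0.091 in light. DER2.1 in light was -0.12 without normalization, -0.027 with median scaling and -0.021 with array weights, and DER2.2 in light was 0.058 with the hybridization controls and 0.042 with array weights.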
